A study of Rattus norvegicus with 17 samples.

Results

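Expression of genes of hepatic glucose production, the insulin signal and cysteine breakdown was examined in the livers of rat pups whose mothers received different amounts of choline. The set was Pck1, Fbp1, Tat, Cdo1, Irs1, Irs2, Insr and Foxo1, and a gene was included where a probe set of the array carried its symbol as the only gene. Of these 8 genes 7 were found, each with 1 probe set, among 14557 genes measured, and Fbp1 is not analysed here. All 7 passed the filter on dim genes, as did 12912 genes of the array.

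The animals were male Wistar offspring aged 24 days, 1 per litter, and RNA of each liver was hybridised to its own array. Every dam, those of the fully adequate group included, had first eaten a choline-deficient AIN-93 M diet for 16 weeks, which was used to give it a fatty liver. Groups are named by the dam's pregnancy diet and then its lactation diet, with D for choline-deficient and N for the choline-adequate AIN-93 G diet. DD offspring (n = 4) had deficient diets throughout, ND offspring (n = 4) a deficient diet in lactation only, DN offspring (n = 5) a deficient diet in pregnancy only, and NN offspring (n = 4) adequate diets in both periods. No group had a dam without fatty liver, so every comparison is between offspring of such dams. Signals are on a log2 scale, on which a difference of 1 is a doubling, and they rank livers for a gene but not genes against each other. Group means are given ± SD and differences ± SE, over the group sizes above.

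The tissue labels name liver, while a free-text field names a prostate cancer line. The 5 hepatocyte markers measured, Alb, Tf, Ttr, Serpina1 and Fgg, had mean signals of 9.85 to 11.69, above the array medians of 2.50 to 2.71. Their summed signal on the linear scale was 10741 to 11612 in DD livers, 10825 to 11680 in ND livers, 10863 to 11859 in DN livers and 10653 to 11562 in NN livers, so the groups overlapped. Summed leukocyte markers (5 of 7 measured, 4 of them under the median signal) were 21.9 to 25.4 in DD livers, 24.98 to 29.5 in ND livers, 24.99 to 28.5 in DN livers and 25.9 to 30.2 in NN livers, so that DD and NN did not overlap. Summed pancreas markers (5 of 6 measured, 4 of them under the median signal) were 24.1 to 37.7 in DD livers, 20.4 to 29.9 in ND livers, 19.1 to 22.8 in DN livers and 21.7 to 29.5 in NN livers, so that DD and DN did not overlap. For cholangiocyte, Kupffer cell, stellate cell, endothelium, adipocyte, erythroid and kidney markers all groups overlapped, and the part of any marker in the results was not tested. In whole liver, fewer cells of a type and less RNA per cell cannot be told apart. The spread of an array, the SD over all its probe sets, was 1.67 ± 0.0520 in DD, 1.74 ± 0.0411 in ND, 1.75 ± 0.0293 in DN and 1.70 ± 0.0574 in NN, and it is given below beside the genes it moved with.

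Insulin binds its receptor on hepatocytes, and the activated receptor phosphorylates insulin receptor substrates, which pass the signal through phosphoinositide 3-kinase to AKT. AKT phosphorylates the transcription factor FOXO1 and keeps it out of the nucleus, so that in fasting, when insulin is low, FOXO1 can act on genes of glucose output and on the receptor and Irs2 themselves. In the suckling rat the liver makes glucose from amino acids, lactate and glycerol, and Pck1 and Tat are activated around birth. Choline joins this picture through its oxidation product betaine, which remethylates homocysteine; homocysteine is also the precursor of cysteine, which cysteine dioxygenase breaks down.

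The windows before the transcription starts of Pck1 and Insr are shown because each holds a short sequence through which the pathway is known to act. RefSeq entries on GRCr8 were matched for 5 of the 7 genes (Pck1, Tat, Irs1, Insr and Foxo1). Both strands of the 250 bases before each start were searched for the cAMP response element TGACGTCA, its form in the Pck1 promoter TTACGTCA, the FOXO core TGTTTAC, the insulin response core TGTTTTG and the glucocorticoid receptor hexamer TGTTCT. Pck1 lies on the plus strand at chr3:182348322-182348571 and Insr on the minus strand at chr12:6128804-6129053, and the capitals mark the match.
Pck1: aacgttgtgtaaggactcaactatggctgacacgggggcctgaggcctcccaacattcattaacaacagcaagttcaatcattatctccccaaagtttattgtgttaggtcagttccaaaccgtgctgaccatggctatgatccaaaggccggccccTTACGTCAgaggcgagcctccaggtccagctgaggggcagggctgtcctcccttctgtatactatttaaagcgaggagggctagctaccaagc
Insr: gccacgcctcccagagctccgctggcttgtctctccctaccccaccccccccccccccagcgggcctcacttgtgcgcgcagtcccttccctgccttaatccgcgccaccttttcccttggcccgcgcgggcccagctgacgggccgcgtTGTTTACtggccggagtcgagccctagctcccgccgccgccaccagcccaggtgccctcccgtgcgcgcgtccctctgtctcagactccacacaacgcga
The Pck1 match spans bases 93 to 86 before the start, and TTACGTCA occurs in 0.750% of 33469 promoter windows of the same length. The Insr match spans bases 100 to 94, and TGTTTAC occurs in 3.21% of windows. Neither match overlaps another of the motifs searched. The other motifs occur in 1.59% (TGACGTCA), 5.46% (TGTTTTG) and 17.5% (TGTTCT) of windows and in none of the 5 matched here. A match describes letters in a window and is not a measured binding site.

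**Figure D1:**
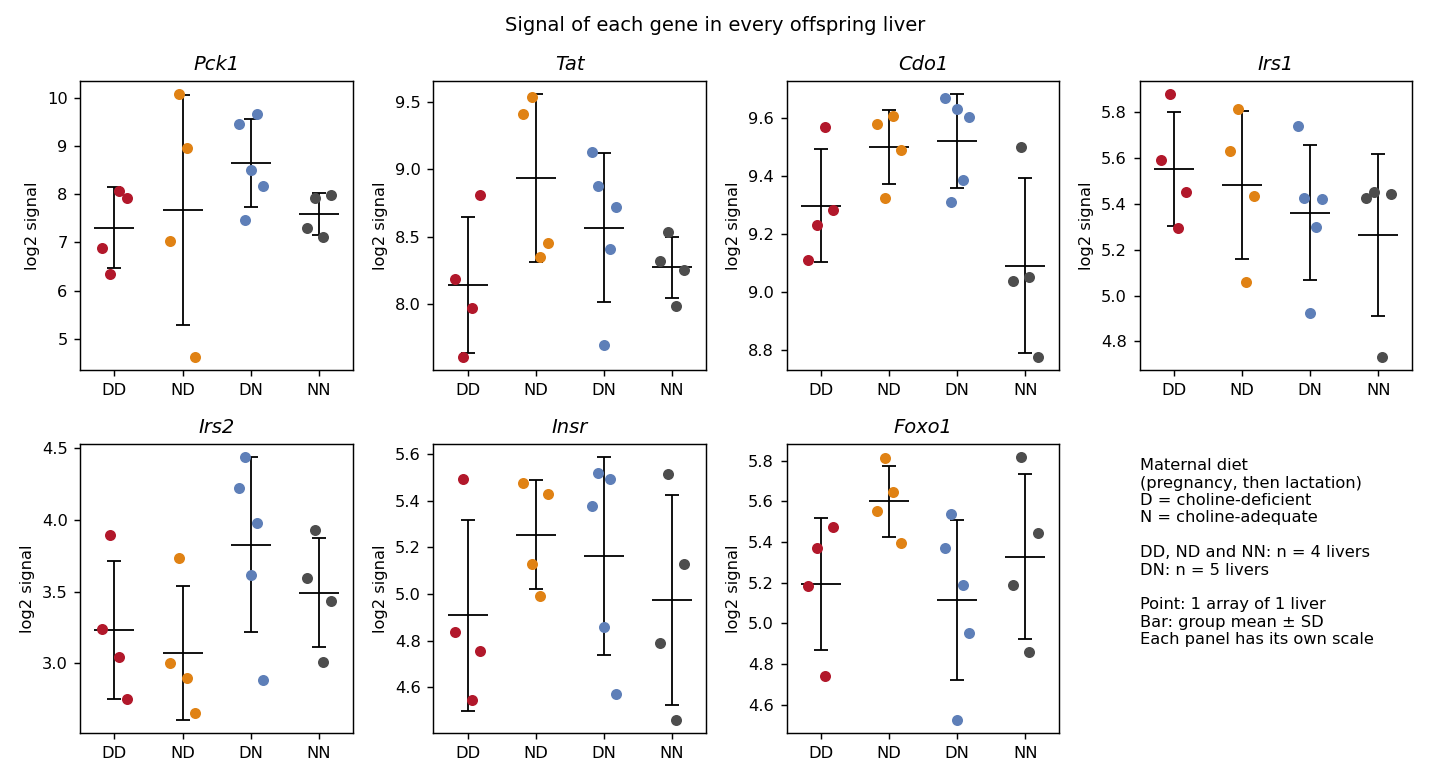
Each panel plots 1 gene, with the log2 signal on the y axis (own scale per panel) and the maternal diet group on the x axis. Each point is 1 liver and the bars are the group mean ± SD (n = 4 for DD, ND and NN, n = 5 for DN). The ND livers run from 4.62 to 10.07 for Pck1, and the groups overlap in every panel.

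No gene of the set passed the test in any of the 6 comparisons between groups or in the interaction, and for 0 of the 7 did the livers of any pair of groups separate without overlap. Over the array, all livers of one group lay above or below all of the other for 2.58% of the 12912 genes in ND against NN, 3.04% in DN against NN, 5.88% in DD against DN, 3.69% in DD against ND, 1.8% in DD against NN and 1.02% in ND against DN. By limma with Benjamini-Hochberg adjustment, 0 of 12912 genes (0%) passed for ND against NN, for DN against NN, for DD against ND, for DD against NN, for ND against DN and for the interaction, and 1 gene (0.00774%) for DD against DN. At an unadjusted p under 0.05, limma listed 598 genes for ND against NN, 1732 for DN against NN, 2385 for DD against DN, 1132 for DD against ND, 462 for DD against NN, 365 for ND against DN and 2580 for the interaction. The gene that passed, Tfec, is none of the set. The differences below are therefore values with their errors, of which none passed the adjusted threshold.

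Insr encodes the insulin receptor. Its signal was 4.84, 5.49, 4.54 and 4.75 in DD livers and 5.47, 5.13, 4.99 and 5.43 in ND livers. It was 5.38, 5.52, 4.86, 5.49 and 4.57 in DN livers and 4.79, 5.51, 4.46 and 5.13 in NN livers. The 4 ND livers were the most alike, and each of the other groups held 1 liver or more near 5.5 and 1 or more under 4.9. Group means were 4.91 ± 0.411 (DD), 5.25 ± 0.234 (ND), 5.16 ± 0.425 (DN) and 4.97 ± 0.451 (NN), so that the order from high to low was ND, DN, NN and DD, and no neighbours in it differed beyond their spread. The largest difference between groups, DD against ND, was -0.35 ± 0.253 (limma, adjusted p = 0.667). Of the 4 DD livers 3 lay below all ND livers and 1, DD 2, above all of them. The difference was -0.54 without DD 2, -0.23 without DD 3 and -0.21 after repeated quantile normalisation.

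Among the 7 genes, Insr was the one whose correlation with a property of the arrays passed its test. Over the 17 livers its signal correlated with the spread of the array (Pearson r = 0.83, permutation p = 7e-05, adjusted over 7 genes 0.00049; Spearman rho = 0.86, adjusted permutation p = 0.00021). Without the livers farthest from the median spread, DD 3 and NN 3, r was 0.76, and with group means removed it was 0.83. Of the 12912 genes tested, 341 (2.64%) had an r with array spread at least as large in size, Insr included, and 41.3% had one above 0.5 in size. With array spread as a covariate the Insr differences turned sign in 6 of the 7 comparisons, to -0.02 for ND against NN, -0.14 for DN against NN, 0.27 for DD against DN, 0.16 for DD against ND, 0.14 for DD against NN and 0.30 for the interaction. The FOXO core in the Insr window printed above describes that promoter and was not set against these values.

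**Figure D2:**
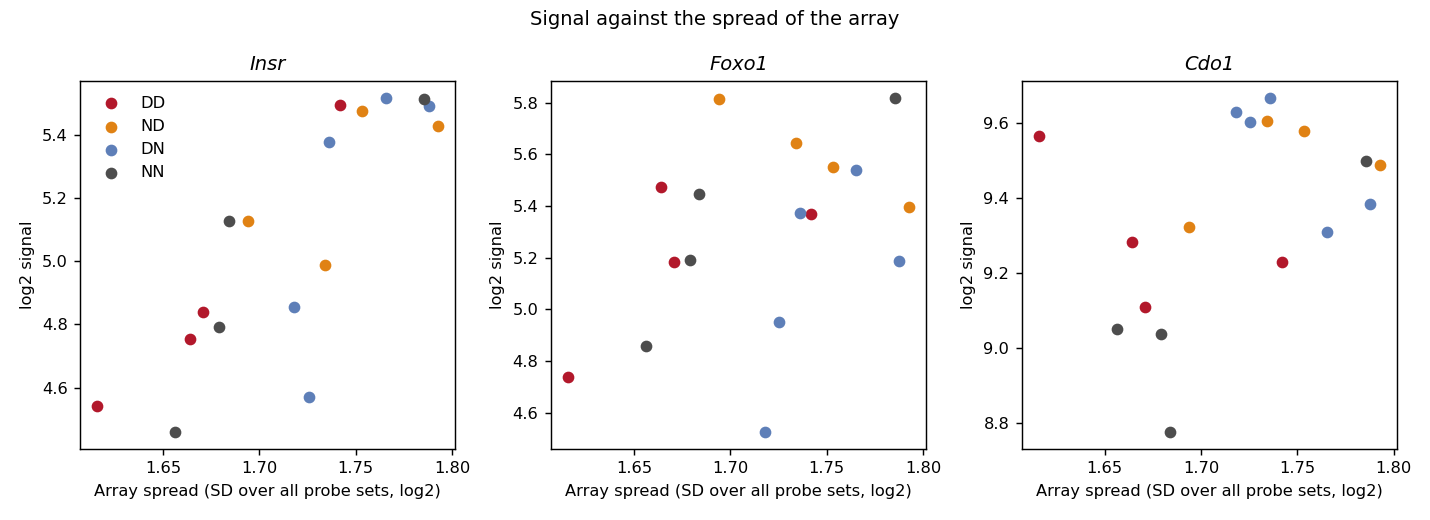
Log2 signal of Insr, Foxo1 and Cdo1 (y axes) against array spread in log2 units, as defined above (x axes); each point is 1 of 17 livers, coloured by group. Insr climbs with array spread (r = 0.83), while Foxo1 (r = 0.43) and Cdo1 (r = 0.39) show looser relations that did not pass the permutation test after adjustment.

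For the other genes r with array spread was 0.43 for Foxo1, 0.39 for Cdo1, 0.35 for Irs2, 0.23 for Tat, 0.20 for Irs1 and -0.11 for Pck1. The adjusted permutation p was 0.293 for Foxo1 and for Cdo1 and higher for the rest. Spearman's rho was 0.43 for Foxo1 and 0.35 for Cdo1 (adjusted permutation p = 0.289 for each). Without DD 3 and NN 3 the r of Foxo1 was 0.16 and that of Cdo1 0.53.

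Irs1 and Irs2 encode the adaptor proteins that the receptor phosphorylates; Irs2 is itself a FOXO1 target that is high in fasting liver. Irs1 was 5.59, 5.88, 5.29 and 5.45 in DD livers and 5.63, 5.81, 5.06 and 5.43 in ND livers. It was 5.74, 5.43, 4.92, 5.30 and 5.42 in DN livers and 5.43, 5.45, 4.73 and 5.44 in NN livers. Of the NN livers 3 lay close together and NN 3 far below them. Irs1 means were 5.55 ± 0.248 (DD), 5.48 ± 0.323 (ND), 5.36 ± 0.294 (DN) and 5.26 ± 0.355 (NN), which is also the order from high to low, and no neighbours in it differed beyond their spread. The widest difference, DD against NN, was 0.29 ± 0.204 (limma, adjusted p = 0.999), which was 0.11 without NN 3 and 0.18 without DD 2. DN against NN was 0.10 ± 0.194, with 0.21 without DN 3 and 0.0037 without DN 1. It turned to -0.01 when array spread was a covariate, to -0.02 after repeated quantile normalisation and to -0.08 without NN 3.

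Irs2 was 3.24, 3.89, 3.05 and 2.75 in DD livers and 3.00, 3.73, 2.90 and 2.65 in ND livers. It was 4.22, 4.44, 3.62, 3.98 and 2.88 in DN livers and 3.60, 3.93, 3.01 and 3.43 in NN livers. DN livers held the 3 highest of all 17 values, DN 5 was among the low ones, and ND 4 was the lowest. Means were 3.23 ± 0.483 in DD, 3.07 ± 0.465 in ND, 3.83 ± 0.610 in DN and 3.49 ± 0.382 in NN, in the order DN, NN, DD and ND from high to low, with overlap between all neighbours. The difference of ND against DN was -0.76 ± 0.300 (limma, 95% interval -1.39 to -0.12, unadjusted p = 0.0218, adjusted p = 0.999); the ND level was 1.69-fold lower. DD against DN was -0.59 ± 0.300 (adjusted p = 0.296), and -0.31 with array spread as a covariate. With the replicate number as a block, DD against DN was -0.83 ± 0.145 (limma, adjusted p = 0.0545). In that fit ND against DN was -0.99 ± 0.145 (adjusted p = 0.0887). Both estimates are the same as without DN 5, the only array of its number, and the numbers are not a known pairing. Irs1 did not share this order, with the same differences at 0.12 ± 0.194 for ND against DN and 0.19 ± 0.194 for DD against DN; the difference between the 2 genes was not tested. Without 1 array the Irs1 value for ND against DN ran from 0.012 (without ND 2) to 0.26 (without ND 3), and it was 0.04 with array weights. That for DD against DN was 0.08 without DN 3 or without DD 2, 0.12 after median centring, and 0.37 after repeated quantile normalisation or with array spread as a covariate.

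Foxo1 encodes the insulin-restrained transcription factor itself. Its signal was 5.18, 5.37, 4.74 and 5.47 in DD livers and 5.55, 5.81, 5.65 and 5.40 in ND livers. It was 5.37, 5.54, 4.52, 5.19 and 4.95 in DN livers and 5.19, 5.82, 4.86 and 5.44 in NN livers. The ND livers were the tightest and highest group, and 3 of 4 lay above every DN and every DD liver. Means were 5.19 ± 0.325 (DD), 5.60 ± 0.175 (ND), 5.11 ± 0.395 (DN) and 5.33 ± 0.407 (NN), in the order ND, NN, DD and DN from high to low, and neighbours in it overlapped. ND against DN gave 0.49 ± 0.213 (95% interval 0.04 to 0.94, unadjusted p = 0.0352, adjusted p = 0.999 by limma) and DD against ND -0.41 ± 0.225 (adjusted p = 0.587). The second was -0.13 with array spread as a covariate, -0.26 after repeated quantile normalisation and -0.26 without DD 3. Array signal measures the transcript and not where the protein is or whether it is phosphorylated.

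Pck1 encodes cytosolic phosphoenolpyruvate carboxykinase, which commits oxaloacetate to glucose synthesis and is controlled mainly through its transcription. Its signal was 6.89, 6.34, 8.07 and 7.93 in DD livers and 7.04, 10.07, 8.95 and 4.62 in ND livers. It was 9.45, 7.47, 8.50, 9.67 and 8.16 in DN livers and 7.31, 7.93, 7.11 and 7.97 in NN livers. The ND group held both the highest and the lowest of the 17 livers, ND 2 and ND 4, which stood 43.7-fold apart. The SD was 0.834 in DD, 2.39 in ND, 0.913 in DN and 0.436 in NN, and equality of these SDs was not tested. Means were 7.31 in DD, 7.67 in ND, 8.65 in DN and 7.58 in NN, in the order DN, ND, NN and DD from high to low, and neighbours in it overlapped.

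The largest Pck1 difference between groups was DD against DN, at -1.34 ± 0.772 (limma, 95% interval -2.97 to 0.28, adjusted p = 0.358), or 2.53-fold lower in DD livers. DN against NN was 1.07 ± 0.772 (adjusted p = 0.541), with 4 of 5 DN livers above all NN livers. With array spread as a covariate these values were -2.25 and 1.63. ND against NN was 0.09 ± 0.814 (limma, adjusted p = 0.985), and its sign turned when any of several single livers was left out. The difference was -0.71 without ND 2, -0.34 without ND 3, -0.067 without NN 3, -0.0020 without NN 1 and 1.10 without ND 4. After repeated quantile normalisation it was -0.0069. It was also 0.30 without ND 1, 0.32 with array weights and 0.61 when array spread was a covariate. The intervals are wide enough that neither a doubling nor a lack of difference can be read from them. Pooled over groups, the SD between livers of 1 group was 1.33, which only 6 of 12912 genes exceeded.

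**Figure D3:**
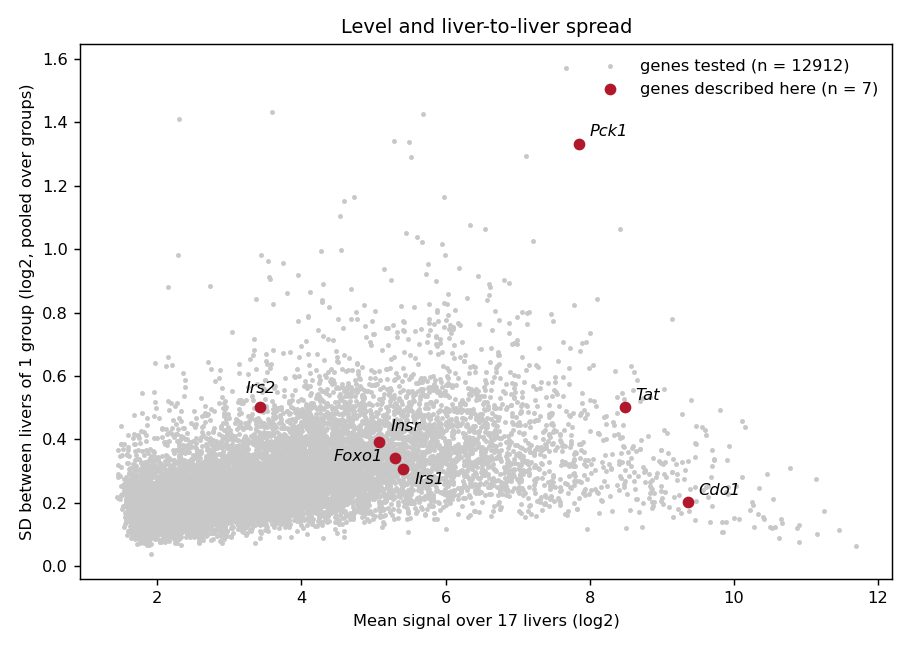
Pooled SD between livers of 1 group (y axis, log2 units) against the mean signal over 17 livers (x axis, log2) for the 12912 genes tested in grey and the 7 genes described in red. Pck1 stands high at an SD of 1.33, against a median of 0.248 over all genes; Cdo1 lies at 0.203.

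The genes differed widely in how much they varied between livers of 1 group. Tat and Irs2 had an SD of 0.502 each, above 94.7% of genes, and Insr (0.393), Foxo1 (0.343) and Irs1 (0.306) were above 85.3%, 77.3% and 69.1%. Cdo1, at 0.203, was above 30.9%. From lowest to highest liver the signal of Tat spanned 3.79-fold, Irs2 3.45-fold, Foxo1 2.45-fold, Irs1 2.21-fold, Insr 2.08-fold and Cdo1 1.86-fold, against a median of 1.94-fold over all genes. The share of the variance that lay between diet groups was 48.8% for Cdo1, 31.1% for Tat, 31.0% for Irs2, 27.7% for Foxo1, 17.2% for Pck1, 14.1% for Irs1 and 13.8% for Insr, with a median of 21.1% over all genes. Pck1 was thus the gene that varied most between livers of the same diet, and Cdo1 the one whose variance lay most between diets.

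Tat encodes tyrosine aminotransferase, the first enzyme of tyrosine breakdown and a classical glucocorticoid-induced gene of liver. Its signal was 8.19, 7.61, 7.97 and 8.81 in DD livers and 9.41, 9.53, 8.35 and 8.45 in ND livers. It was 9.13, 8.88, 7.70, 8.41 and 8.72 in DN livers and 8.32, 8.54, 7.99 and 8.25 in NN livers. ND 1 and ND 2 were the highest of all, while ND 3 and ND 4 lay among the NN livers. Means were 8.15 ± 0.504 (DD), 8.94 ± 0.621 (ND), 8.57 ± 0.550 (DN) and 8.28 ± 0.225 (NN), so that ND, DN, NN and DD was the order from high to low, with overlap between neighbours. DD against ND was -0.79 ± 0.317 (limma, 95% interval -1.46 to -0.12, unadjusted p = 0.0227, adjusted p = 0.55), a 1.73-fold lower level in DD livers, and 3 of 4 DD livers were below all ND livers. ND against NN was 0.66 ± 0.317 (adjusted p = 0.889).

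Cdo1 encodes cysteine dioxygenase, which oxidises cysteine to cysteine sulfinate on the way to taurine and sulfate and whose protein is known to be stabilised when cysteine is plentiful. Its signal was 9.11, 9.23, 9.57 and 9.28 in DD livers and 9.58, 9.32, 9.61 and 9.49 in ND livers. It was 9.67, 9.31, 9.63, 9.38 and 9.60 in DN livers and 9.04, 9.50, 9.05 and 8.78 in NN livers. The NN group was the lowest, with 3 of its 4 livers below every liver of the other groups, and NN 2 stood among them. Means were 9.30 ± 0.193 (DD), 9.50 ± 0.128 (ND), 9.52 ± 0.161 (DN) and 9.09 ± 0.300 (NN). From high to low the order was DN, ND, DD and NN, and neighbours in it overlapped.

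DN against NN was 0.43 ± 0.142 for Cdo1 (limma, 95% interval 0.13 to 0.73, unadjusted p = 0.00744, adjusted p = 0.281), a 1.35-fold higher level in DN livers. ND against NN was 0.41 ± 0.149 (95% interval 0.09 to 0.72, adjusted p = 0.889), or 1.33-fold. Both differences use the same NN livers, so they are not separate evidence. DD against NN was 0.21 ± 0.149 (adjusted p = 0.999), which was 0.34 without NN 2, 0.12 without DD 3 and 0.10 without NN 4. ND against DN was -0.02 ± 0.142, with a 95% interval of -0.32 to 0.28.

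The interaction asks whether a deficient diet in both periods differs from the sum of the single-period differences, and is (DD minus ND) minus (DN minus NN). It was -0.63 ± 0.206 for Cdo1 (limma, 95% interval -1.06 to -0.20, unadjusted p = 0.00689, adjusted p = 0.138) and -1.08 ± 0.436 for Tat (adjusted p = 0.19). The Cdo1 value passed when NN 2 was left out, at -0.77 (adjusted p = 0.036), a fit in which 639 genes of the array passed. Over all alternatives it ran from -0.77 to -0.52, with adjusted p from 0.036 to 0.985, the highest with array spread as a covariate. Values for the other genes were -1.43 ± 1.12 for Pck1, -0.54 ± 0.349 for Insr, -0.20 ± 0.310 for Foxo1, -0.17 ± 0.436 for Irs2 and -0.03 ± 0.282 for Irs1. The Pck1 value was -0.63 without ND 2, -2.45 without ND 4 and -2.86 with array spread as a covariate, and that of Insr was -0.30 after repeated quantile normalisation. Leaving out 1 array gave -0.36 to -0.04 for Foxo1, -0.41 to 0.048 for Irs2 and -0.17 to 0.15 for Irs1.

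All 7 interaction values were negative, with a median of -0.54, while over all genes tested the median was 0.03 and 53.1% were positive. This description depends on the scaling of the arrays: after repeated quantile normalisation the median of the 7 was -0.30 with 2 positive (Irs1 and Foxo1), and with array spread as a covariate it was 0.25 with 4 positive (Irs1, Irs2, Insr and Foxo1). Cdo1, Tat and Pck1 remained negative under each of these scalings. The signal of all 7 genes comes from the same 17 livers, so the genes are not independent of each other.

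**Figure D4:**
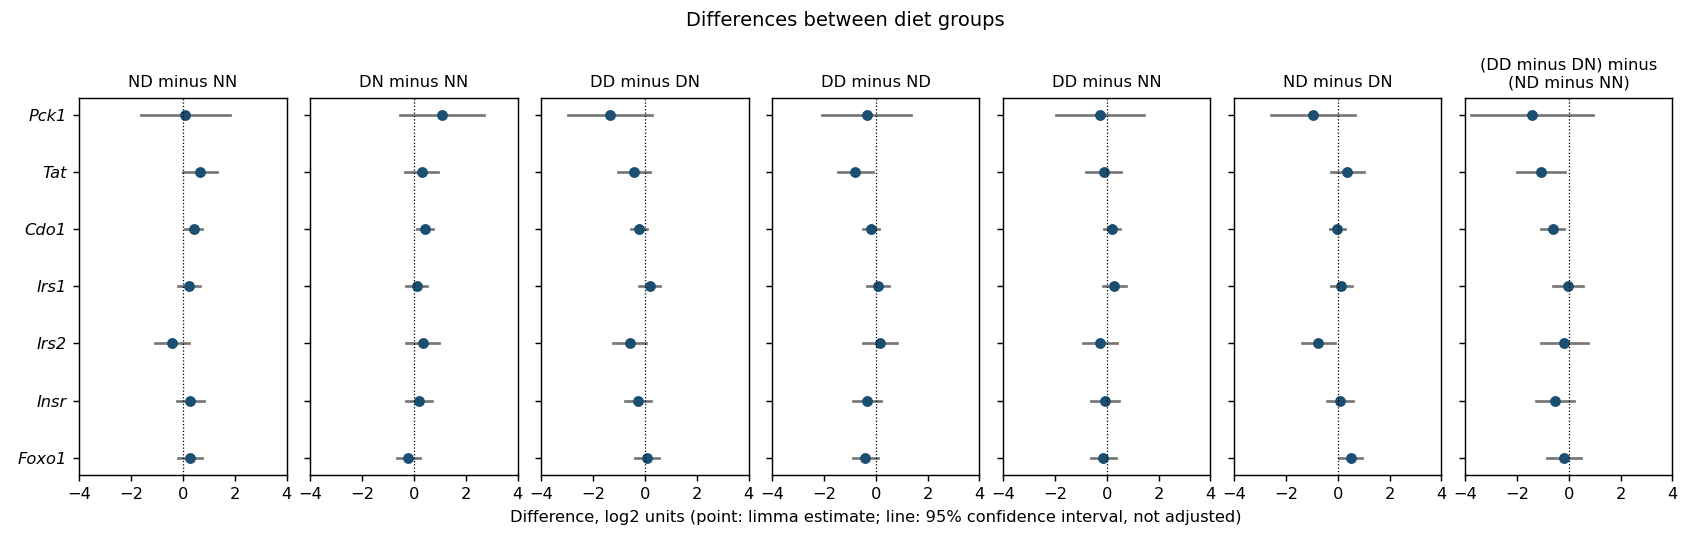
Differences of the 7 genes in log2 units (x axes) for the 6 pairs of groups and the interaction, 1 panel each; points are limma estimates and lines 95% confidence intervals that are not adjusted for the number of genes. The Pck1 intervals are the widest. The Cdo1 lines stay clear of 0 for ND minus NN, DN minus NN and the interaction only. Those of Tat do so for DD minus ND and the interaction only, and those of Irs2 and Foxo1 for ND minus DN only.

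Set beside all genes, the other comparisons gave the following. For ND against NN 6 of 7 differences were positive with a median of 0.27 (all genes: median -0.01, 48.4% positive), and for DN against NN 6 of 7 with a median of 0.29 (all genes: -0.03, 44.5%). For DD against DN 2 of 7 were positive with a median of -0.26 (all genes: 0.01, 51.6%), for DD against ND 2 of 7 with -0.35 (all genes: -0.02, 47.1%), and for DD against NN 2 of 7 with -0.13 (all genes: -0.03, 43.8%). For ND against DN 4 of 7 were positive, with a median of 0.09 (all genes: 0.02, 55.4%). With array spread as a covariate these 6 medians kept their signs and were 0.12, 0.15, -0.18, -0.13, -0.02 and 0.11. The comparisons share groups, so their values are given side by side only.

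Genes of the set were also compared liver by liver. Of 21 gene pairs, 16 correlated positively and 5 negatively over the 17 livers, from r = -0.07 to 0.63 with a median of 0.25, and 0 passed after adjustment over the pairs (5 had an unadjusted permutation p under 0.05). Insr and Foxo1 had r = 0.63 (permutation p = 0.00739, adjusted 0.0965; rho = 0.58, permutation p = 0.0164), which was 0.68 with group means removed and 0.48 without DD 3 and NN 3, the livers farthest from the median of Insr. Tat and Foxo1 had r = 0.61 (permutation p = 0.00919, adjusted 0.0965; rho = 0.66, permutation p = 0.00491), which was 0.50 without ND 1 and ND 2. Irs2 and Insr, Irs1 and Foxo1, and Irs1 and Insr had r of 0.56, 0.56 and 0.52, with adjusted permutation p of 0.114, 0.114 and 0.134. Irs2 and Insr had r of 0.45 without DN 1 and DN 2. Without DN 3 and NN 3, r was 0.22 for Irs1 and Foxo1 and 0.32 for Irs1 and Insr. Without DN 3 alone, Irs1 and Foxo1 had r of 0.43. With array spread partialled out, r was 0.54 for Insr and Foxo1, 0.58 for Tat and Foxo1 and 0.51 for Irs2 and Insr. It was 0.53 for Irs1 and Foxo1 and 0.64 for Irs1 and Insr, and 0 pairs passed. Without ND 3, 3 pairs passed (Insr with Foxo1, Tat with Foxo1 and Irs1 with Foxo1, at r of 0.66, 0.65 and 0.69, adjusted permutation p = 0.0441 each). Pck1, which had the widest spread, had r between -0.07 and 0.38 with the others.

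**Figure D5:**
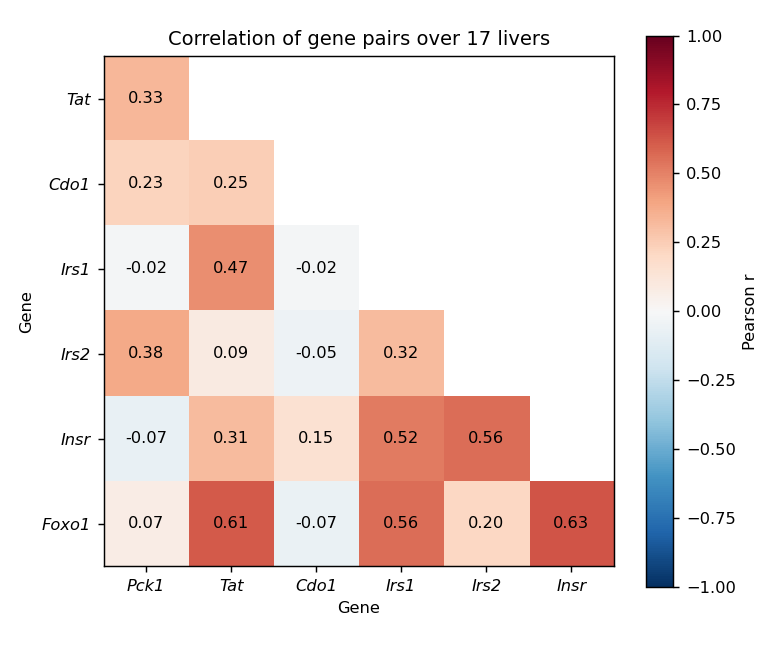
Pearson r over 17 livers for each of the 21 pairs of the 7 genes, named on both axes, with colour and printed value giving r. The pairs with the highest r are Insr with Foxo1 (0.63) and Tat with Foxo1 (0.61), whereas Cdo1 with Irs1, Irs2 and Foxo1 is near 0.

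Among the 12912 genes tested, the genes most like each member over the 17 livers were as follows, given as descriptions. For Insr they were Pomt1, a protein O-mannosyltransferase (r = 0.93, rho = 0.92), and R3hdm2 (r = 0.93, rho = 0.92), which had r of 0.80 and 0.78 with array spread. For Foxo1 they were Herpud1, of endoplasmic reticulum protein degradation (r = 0.89, rho = 0.85), and Cited2, a CBP/p300-binding regulator (r = 0.85, rho = 0.80). For Irs1 they were Fbrsl1 (r = 0.84) and Stx8, a syntaxin (r = 0.82), and for Irs2 pramef20-ps3 (r = 0.85) and Mt1f, a metallothionein (r = 0.84). For Pck1 they were Ppm1k, the phosphatase that activates branched-chain ketoacid dehydrogenase (r = 0.77, rho = 0.76), and Gabarapl1, an autophagy protein (r = 0.74, rho = 0.72). For Tat they were Sall1 (r = 0.78) and Ebp, a sterol isomerase (r = 0.74). For Cdo1 they were Mtmr6, a phosphoinositide phosphatase (r = 0.82), and Ginm1 (r = 0.81). All are the highest values out of a search over the array, and they rest on the same 17 arrays.

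The wider pathways were described with 11 gene lists of 236 entries, of which 168 were measured and 167 tested. By limma 0 of the 167 passed in any comparison, against the array-wide shares given above. Insulin signalling (26 genes tested, Insr, Irs1, Irs2 and Foxo1 among them) had a median difference of -0.21 with 7 positive for DD against DN. For ND against NN the median was 0.14 with 19 positive. With array spread as a covariate the first turned to 0.05 and the second was 0.01 with 14 positive. For DN against NN the median of this list was 0.11, and -0.01 with array spread as a covariate. Within it, Pdpk1, the kinase that activates AKT, differed by -0.71 ± 0.235 and Rictor, of mTOR complex 2, by -0.67 ± 0.200 for DD against DN (limma, adjusted p = 0.15 and 0.133), while Akt1 differed by 0.53 ± 0.192 (adjusted p = 0.17). The list drawn up for inhibitors of the insulin signal (15 genes) had 7 positive with a median of -0.04 in that comparison. Its median was -0.12 after median centring and 0.06 with array spread as a covariate. It included Enpp1, which restrains the receptor (-0.77 ± 0.219, adjusted p = 0.131), and Phlpp1, an AKT phosphatase (-0.58 ± 0.193, adjusted p = 0.151). The list also held Ceacam1, which promotes insulin clearance and is not classed here as restraining the signal (-1.11 ± 0.389, adjusted p = 0.165).

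FOXO1 targets (22 genes, Pck1, Irs2 and Insr among them) had a median of -0.29 for DD against DN with 2 positive. For DN against NN it was 0.20 with 16 positive, and for ND against NN 0.15 with 15 positive. With array spread as a covariate these medians kept their signs, at -0.09 with 9 positive, 0.08 with 12 and 0.01 with 11. The interaction median of these targets was -0.45 with 2 positive, and with array spread as a covariate it turned to 0.19 with 13 positive. Bcl6, a transcriptional repressor, had the difference of largest moderated statistic, with 1.59 ± 0.414 for ND against NN (limma, adjusted p = 0.889, as for Ppargc1a, a coactivator, at 0.75 ± 0.297 and Cat, catalase, at 0.30 ± 0.163) and -2.18 ± 0.571 for the interaction (adjusted p = 0.114). Cat had an interaction value of -0.81 ± 0.225 (adjusted p = 0.117), and Gadd45b, a stress-response gene, one of 0.66 ± 0.257 (adjusted p = 0.177). Regulators of fasting glucose genes (27 genes, Foxo1 included) had 12 positive for DD against DN with a median of -0.14. With array spread as a covariate the median of these regulators was 0.01. Among them Cebpb, a transcription factor of the C/EBP family, differed by -0.66 ± 0.157 for DN against NN (adjusted p = 0.275) and by 0.55 ± 0.157 for DD against DN (adjusted p = 0.131). For DD against DN, Cebpa of the same family was at 0.99 ± 0.312 (adjusted p = 0.145) and Prkaa1, a catalytic subunit of AMP-activated kinase, at -0.58 ± 0.191 (adjusted p = 0.15). For DN against NN, Cebpa was at -0.77 ± 0.312 (adjusted p = 0.331) and Prkaa1 at 0.49 ± 0.191 (adjusted p = 0.323).

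Among gluconeogenesis genes (12 tested, Pck1 included), for DD against DN 4 were positive with a median of -0.13, which turned to 0.17 with array spread as a covariate, and for DN against NN 5 were positive with a median of -0.05, which was 0.01 after median centring. Slc37a4, the glucose 6-phosphate transporter, differed by 0.39 ± 0.185 and Pck2, the mitochondrial carboxykinase, by 0.37 ± 0.189 for DD against DN (limma, adjusted p = 0.264 and 0.305), opposite in sign to Pck1. Regulators of glycolysis and pyruvate use (8 genes) had 4 positive for DD against DN with a median of 0.12, with Pdha1, a subunit of pyruvate dehydrogenase, at -0.90 ± 0.267 (adjusted p = 0.132), Pfkfb3 at 0.53 ± 0.167 (adjusted p = 0.143) and Pklr, liver pyruvate kinase, at 0.66 ± 0.254 (adjusted p = 0.192). Insulin-induced lipogenic genes (8 tested) had 6 positive and a median of 0.90 for DD against DN, and 2 positive and a median of -0.40 for DN against NN. For DD against DN, Scd, stearoyl-CoA desaturase, was at 1.74 ± 0.457 (adjusted p = 0.131), Acly, ATP citrate lyase, at 0.80 ± 0.315 (adjusted p = 0.198) and Thrsp at 0.64 ± 0.261 (adjusted p = 0.212). For DN against NN, Srebf1, the lipogenic regulator, was at -1.41 ± 0.492 (adjusted p = 0.29), Elovl6, a fatty acid elongase, at -1.31 ± 0.590 (adjusted p = 0.36) and Scd at -0.94 ± 0.457 (adjusted p = 0.38). These lipogenic medians kept their sign under the 3 scalings, at 0.83 to 1.06 for DD against DN.

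Glucocorticoid targets (18 genes, Tat and Pck1 among them) had 16 positive for ND against NN with a median of 0.37. For DD against ND 3 were positive with a median of -0.30. Both medians kept their sign under the 3 scalings (0.25 to 0.42 and -0.35 to -0.21). Tdo2, tryptophan dioxygenase, was at 0.46 ± 0.173 for ND against NN (limma, adjusted p = 0.889) and at -0.76 ± 0.239 for the interaction (adjusted p = 0.129). Orm1, an acute-phase protein, was at 0.64 ± 0.312 for ND against NN (adjusted p = 0.889), and Nr3c1, the glucocorticoid receptor, at -0.88 ± 0.376 for the interaction (adjusted p = 0.211). Fasting hormones and hepatokines (7 genes) had 6 positive for ND against NN with a median of 0.36, and of 0.06 with array spread as a covariate. Glucogenic amino acid catabolism (24 genes, Tat among them) had 16 positive for ND against NN with a median of 0.15. That median was 0.03 after repeated quantile normalisation, 0.01 with array spread as a covariate (13 positive in each) and 0.19 after median centring. For DD against DN 12 were positive with a median of 0.03. It was -0.04 after median centring and 0.19 after repeated quantile normalisation. Sdsl, a serine dehydratase-like enzyme, was at 0.40 ± 0.125 for DD against DN (adjusted p = 0.14), with Hgd, of tyrosine breakdown, at -0.66 ± 0.271 (adjusted p = 0.215) and Gcat, of threonine breakdown, at 0.54 ± 0.222 (adjusted p = 0.216).

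Cysteine and taurine genes (18 tested, Cdo1 among them) gave Cdo1 its closest setting. For DN against NN 11 were positive with a median of 0.09. It turned to -0.02 after repeated quantile normalisation and -0.08 with array spread as a covariate. For ND against NN 11 were positive with a median of 0.10. That was 0.03 after repeated quantile normalisation, 0.05 with array spread as a covariate and 0.15 after median centring. Cth, cystathionine gamma-lyase, which makes the cysteine that Cdo1 consumes, differed by -0.54 ± 0.176 for DD against DN and by -0.91 ± 0.255 for the interaction (limma, adjusted p = 0.146 and 0.118). Ado, the thiol dioxygenase related to Cdo1 in function, was opposite in sign to Cdo1, at -0.43 ± 0.149 for DN against NN and 0.69 ± 0.216 for the interaction (adjusted p = 0.284 and 0.13). For DD against DN, Ado was at 0.45 ± 0.149 (adjusted p = 0.149) and Gclc, of glutathione synthesis, at -0.72 ± 0.338 (adjusted p = 0.263), and Cth was at 0.46 ± 0.176 for DN against NN (adjusted p = 0.315). Cdo1 itself was at 0.43 for DN against NN and -0.63 for the interaction, as given above.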

How the data were processed

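Total RNA from 17 offspring livers was biotin-labelled and put on Affymetrix arrays, 1 per animal, per the labels' protocols. The values deposited by the authors are probe set signals on a log2 scale. The submitters' processing notes name RMA and affy, whose versions are not given in the sources used here. In general, RMA subtracts background, equalises the arrays and summarises probes, so values are relative signals. The base was taken as 2, since the labels do not state it. The table held 36685 probe sets. The platform annotation gave 14824 of them 1 gene symbol and 829 several, and 21032 are unnamed here. Symbols were checked by Entrez number against the RefSeq table of GRCr8 (14670 matched, 0 changed). For the 234 genes with several sets the set with the highest mean was kept, which left 14557 genes. A gene was tested where 4 or more arrays exceeded 1.73, the 25th percentile of the table, which kept 12912 genes.

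Group means were fitted to all 17 arrays with limma 3.58.1 (lmFit, eBayes; R 4.3.3), with 2-sided p-values adjusted by Benjamini-Hochberg over the 12912 genes of each comparison and a threshold of 0.05. Differences are given ± SE and group means ± SD. Correlations over the livers had 100000 permutations and were adjusted over 21 gene pairs, or over 7 genes against array spread (the SD of an array over its probe sets). The test was also run on simulated data with known changes. Promoter windows and motif shares came from a RefSeq table of 250 bases before to 50 after each start on GRCr8, of which the bases before the start were searched. Alternatives were no filter and a stricter filter at the 50th percentile, the mean of a gene's sets, repeated quantile normalisation, median centring, array spread as a covariate, a trended robust variance, array weights, the replicate number as a block, only the groups compared, and leaving out each array or DD 3 and DN 3 together. The genes and lists were chosen with earlier results of these data known. Named from each list were the genes passing the test or, with none, up to 3 with the largest moderated statistic per comparison, and the 2 genes most correlated with each gene described. Fbp1 has no probe set under the rule and is not analysed here, which leaves 7 genes. No scan date, slide or batch is given in the sources used here. Figures were drawn with matplotlib 3.10.9.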

Additional observations from a re-analysis of the deposited data

Results flagged for a closer look

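In 1 of the 28 combinations of gene and group checked, 1 liver lay apart from the rest of its group: Irs1 was 4.73 in NN 3, and the nearest NN liver was at 5.43. That gap made up 0.963 of the whole range of the group. The critical value for 4 samples is 0.829, and chance passes it in about 1 of 20 groups. NN 3 was also the lowest NN liver for Pck1, Tat, Irs2, Insr and Foxo1, and its part in the NN means was not tested beyond leaving it out.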

How the results depend on the processing

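Each of the 49 gene differences was recomputed under the alternatives, which gave 1365 values. Of these 1310 kept the direction and the side of the threshold, 54 turned sign and 1 newly passed (Cdo1 interaction without NN 2). The number that ceased to pass was 0, since none had passed, and 28 differences never turned sign. The count of 1310 does not measure stability, because many of its values could not turn sign. The filters, the mean of a gene's sets (1 set each here) and the trended variance leave every estimate unchanged. For a pair of groups, so do the fit to only the groups compared and leaving out an array of another group. By more than 1.5 times, without a turn, 207 values of 39 differences moved; 10 differences did neither, which were those of Cdo1 other than DD against NN and ND against DN, those of Tat for ND against NN, DD against ND and the interaction, and those of Irs2 and Foxo1 for ND against DN. The cause of the turns was not tested. Array spread as a covariate turned Insr (ND against NN -0.024, DN against NN -0.14, DD against DN 0.27, DD against ND 0.16, DD against NN 0.14, interaction 0.30), Irs1 (DN against NN -0.011, interaction 0.25), Irs2 (interaction 0.28) and Foxo1 (interaction 0.27). Repeated quantile normalisation turned Pck1 (ND against NN -0.0069), Irs1 (DN against NN -0.021, interaction 0.24), Cdo1 (ND against DN 0.045) and Foxo1 (interaction 0.068). Array weights turned Insr (DD against NN 0.0099), Cdo1 (ND against DN 0.0016) and Irs1 (interaction 0.057). Without DD 3 and DN 3, Insr (0.057) and Foxo1 (0.0144) turned for DD against NN and Cdo1 (0.0073) for ND against DN. Over the fits without 1 array, values ran for ND against NN from -0.71 to 1.10 (Pck1); for DN against NN from -0.079 to 0.21 (Irs1); for DD against DN from -0.071 to 0.23 (Foxo1); for DD against ND from -1.38 to 0.44 (Pck1), -0.072 to 0.18 (Irs1) and -0.059 to 0.38 (Irs2); for DD against NN from -0.53 to 0.049 (Pck1), -0.35 to 0.049 (Tat), -0.26 to 0.12 (Insr) and -0.29 to 0.027 (Foxo1); for ND against DN from -1.78 to 0.038 (Pck1), -0.073 to 0.038 (Cdo1) and -0.056 to 0.18 (Insr); for the interaction from -0.17 to 0.15 (Irs1) and -0.41 to 0.048 (Irs2); and for r with array spread from -0.26 to 0.18 (Pck1). The number of array-wide genes passing for DD against DN, 1, was 0 with no filter, median centring, array spread as a covariate, only the groups compared, or without DD 3 and DN 3. Without 1 array it was 0 to 1, with 0 to 18 for DN against NN and 0 to 639 for the interaction (both highest without NN 2), 0 to 1 of the 7 genes for the interaction and 0 to 3 gene pairs (highest without ND 3; 2 without DD 2). The replicate number as a block gave 3 genes for DD against DN and turned Cdo1 (0.00037) and Insr (-0.056) for ND against DN. The numbers are not a known pairing. Of 24 same-number pairs 11 correlated above 0.1 (-0.45 to 0.53), and 8 of 17 arrays correlated best with their own number. These counts were not set against those of pairs with different numbers. Whether livers of the same number share anything was not tested. The number of arrays limits the precision, and only the groups compared cannot give an interaction.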

Other observations

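Pck1 varied most in ND livers, and 6 other genes of fasting metabolism, chosen after their values had been seen, were read in the same 4 livers. Igfbp1, an insulin-repressed binding protein, was 4.80, 8.48, 4.52 and 5.66 in ND 1 to ND 4, and ND 2, which had the highest Pck1, was the highest of all 17 livers. Ppargc1a, a coactivator of gluconeogenic genes, was 3.52, 5.04, 3.55 and 3.67, again highest in ND 2. Fgf21, a hormone of fasting and of protein restriction, was 3.80, 3.52, 3.15 and 5.55, and ND 4, which had the lowest Pck1 and Irs2, was the highest of all 17. Igfbp2 was 4.24, 6.34, 5.49 and 3.60, in the same order as Pck1 over these livers. Pdk4 was 5.46, 5.40, 3.66 and 6.09, and Bcl6 was 5.44, 5.79, 5.09 and 3.91. The labels used here give neither feeding state nor time of day at tissue collection, and no test was made of these values.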
